A study of Mus musculus with 9 samples.

Results

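DNGR-1 KO BM pre-cDCs were compared with WT BM pre-cDCs across every gene that could be tested, in the 6 BM samples of the 9 pre-cDC samples of the series. The 3 WT samples carried the BL/6 CD45.1 background and the 3 KO samples were Clec9a Cre/Cre on CD45.2, and both came from mixed BM chimeras made in lethally irradiated CD45.1/2 recipients, so WT and KO cells had developed in the same kind of host. Each sample was sorted from cells pooled from a pair of mice, the labels state no treatment, and the age of the mice is not given in them. Members were chosen by the tissue and genotype labels, and 13016 of 51912 listed genes passed the filter on low counts. The KO allele places Cre at the Clec9a locus, and CD45.1 against CD45.2 also separates WT from KO, so the effect of losing DNGR-1 and that of the congenic background cannot be told apart. For the WT samples the GEO labels are at odds, with CD45.1 given as source and CD45.2 in the description, and the CD45.1 of the study's methods was taken.

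DNGR-1, encoded by Clec9a, is a C-type lectin receptor of cDC1s and their precursors that binds F-actin exposed by dead cells and signals through the kinase SYK. Pre-cDCs are precursors committed to the cDC lineage, one stage before the cDC1 and cDC2 subsets, and are found in BM, blood and lymphoid organs. The question behind the comparison was which transcripts of BM pre-cDCs differ when DNGR-1 is absent.

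Clec9a and the actin-binding gene Csrp1 fell in KO, and the synaptic scaffold gene Ppfia4 and the lectin gene Clec7a rose, in edgeR's quasi-likelihood test with Benjamini-Hochberg adjustment at 0.05. These 4 genes are 0.0307% of the tested genes, and all 4 lie at or beside Clec9a on chromosome 6 or in the stretch of chromosome 1 around Ptprc that congenic CD45 strains can differ in. No gene elsewhere in the genome passed, among 12803 tested, of which 474 had an unadjusted p under 0.05. DESeq2 called 11 genes in all, among them Xlr3b, Adgre4, Zfp951 and Atp9a, which lie elsewhere. Without the filter on low counts edgeR's quasi-likelihood test called 10 genes. Among them were Xlr3b, Atp9a and Zfp951, at adjusted p of 9.7e-05, 0.0276 and 0.0482. Below the threshold, mRNAs encoded by the mitochondrial genome, pseudogenes and erythroid genes had negative median differences, whereas genes of cDC2s, monocytes, chemokine receptors and Toll-like receptors had positive ones. The 6 libraries also differed among themselves within each genotype by about as much as between genotypes, and the values below are therefore given library by library.

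The WT libraries held 17457317 to 18727339 counts and the KO libraries 20551382 to 20938524, so that 3 counts corresponded to 0.143 to 0.172 CPM (counts scaled to the library size by TMM, the unit of the levels below), a limit that covers counting error only. The libraries showed the markers of pre-cDCs: Flt3, the receptor for the cDC growth factor FLT3L, was at 289 to 551 CPM, and Irf8, a transcription factor of the lineage, was at 2097 to 3478.5 CPM. Cd3e, which marks T cells, was near 0, at most 0.455 CPM. Other genes listed for other cell types were not near 0. Nkg7, a T and NK cell gene, was at 14.4 to 41.8 CPM, and Cd79b, a B lineage gene, at 37.8 to 59.4 CPM. Mpo, a neutrophil granule gene, was at 707 to 2135 CPM. Ly6d and Siglecf, lineage antigens of the sort, were at 8.83 to 21.1 and 4.27 to 11.6 CPM. Car1, a carbonic anhydrase of erythroid progenitors, reached 4911 CPM in WT replicate 1. KO replicate 1 stood apart in Y-linked transcripts, with 8.27 CPM of Eif2s3y and 4.86 CPM of Ddx3y, where the other 5 libraries had at most 0.0992 and 0.347 CPM. Xist was at 126 to 268 CPM in all 6.

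Clec9a checked the labels first. Its level was 55.2, 83.2 and 91.4 CPM in the WT libraries and rested on 1 count in each KO library. Over the groups the WT level was 1600 times the KO level, with a 95% interval of 547 to 7760 for counting error alone (edgeR's quasi-likelihood test, log2 fold change -10.44, standard error 0.45, adjusted p = 9.38e-06). The 250 bases before its annotated start are shown because the KO allele was made at this gene, together with those of Clec7a, its neighbour that went the other way. The sequences come from RefSeq on GRCm38.p6 and read 5′ to 3′ on the strand of each gene. Capitals mark GAGGAA, a core bound by ETS-family factors such as PU.1, searched on both strands.
Clec9a, chr6:129408612-129408861, plus strand: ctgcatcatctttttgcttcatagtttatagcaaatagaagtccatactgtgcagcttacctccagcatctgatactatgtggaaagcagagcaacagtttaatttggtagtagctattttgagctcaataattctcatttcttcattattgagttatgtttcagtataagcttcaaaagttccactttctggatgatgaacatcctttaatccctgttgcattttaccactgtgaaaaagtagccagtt
Clec7a, chr6:129472780-129473029, minus strand: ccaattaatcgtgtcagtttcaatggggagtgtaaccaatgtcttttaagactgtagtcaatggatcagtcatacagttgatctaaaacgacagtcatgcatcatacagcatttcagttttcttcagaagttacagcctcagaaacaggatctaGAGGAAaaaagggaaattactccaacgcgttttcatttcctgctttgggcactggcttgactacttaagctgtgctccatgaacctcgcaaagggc
The core was found once, in the Clec7a window, starting 96 bases before the start, and 23.3% of 32851 RefSeq windows of this length hold it. Csrp1 and Ppfia4 have annotated starts 9104 and 11788 bases apart, and no window of them is printed.

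Clec7a encodes Dectin-1, a receptor for fungal beta-glucans that also signals through SYK. It lies on chromosome 6 from 129461591 to 129472779 of GRCm38 and is annotated there as a polymorphic pseudogene. Its level was 32.5, 46.0 and 34.8 CPM in WT and 137, 295 and 301 CPM in KO. Every KO library was thus above every WT library, with KO replicate 1 the lowest of the KO group, and the rise was 6.47-fold (edgeR's quasi-likelihood test, log2 fold change 2.69, standard error 0.34, adjusted p = 0.0437). This call was the least firm of the 4. It was lost when any WT library, KO replicate 2 or KO replicate 3 was left out, with adjusted p from 0.158 to 0.366. Scaling by library totals alone (0.0877), leaving out the chromosome 1 genes (0.0864) and fitting all 9 samples of the series together (0.413) lost it too. So did a score of the chromosome 1 genes as covariate (0.144). That score was -0.299, 0.114 and 0.141 in WT and 0.0758, 0.0862 and -0.118 in KO. It overlapped between the genotypes and so cannot adjust for the congenic background.

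Ppfia4 encodes a liprin, a scaffold protein best known from synapses. It lies on chromosome 1 from 134296783 to 134332928. It had 2.14, 2.91 and 3.88 CPM in WT and 274, 444 and 375 CPM in KO, a wider gap than that of Clec7a (122-fold, log2 fold change 6.93, standard error 0.36, adjusted p = 2.46e-05 by edgeR's quasi-likelihood test). Csrp1, a LIM-domain protein that binds the actin cytoskeleton, lies on the same chromosome from 135720061 to 135752232. It had 152, 187 and 188 CPM in WT and 27.0, 33.6 and 37.1 CPM in KO, and fell 5.38-fold (log2 fold change -2.43, standard error 0.24, adjusted p = 0.00657 by the same test). For both genes the spread within a genotype was small beside the gap between genotypes. The Csrp1 call was nevertheless lost without WT replicate 2, WT replicate 3, KO replicate 2 or KO replicate 3, at adjusted p from 0.0636 to 0.0952, with a log2 fold change that stayed between -2.53 and -2.37.

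**Figure D1:**
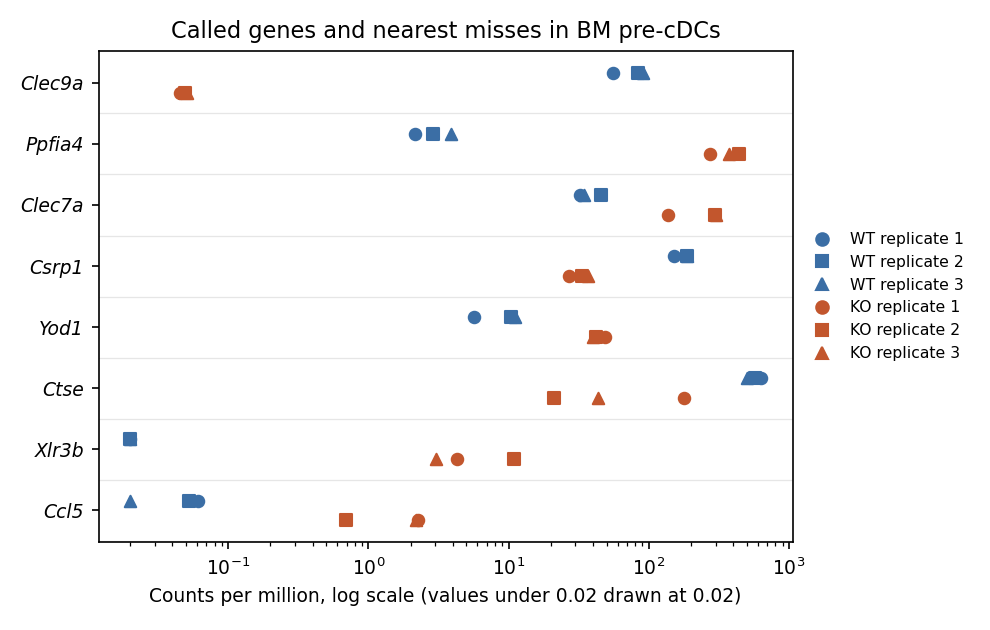
Level of 8 genes in each BM library, in CPM on a log axis. Blue marks WT, orange marks KO and the marker shape gives the replicate number. The 3 KO and 3 WT points are apart for each gene, and Ctse is spread from 21.2 to 179 CPM within KO.

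Other genes of the chromosome 1 stretch showed the same kind of separation without passing the threshold. Yod1, a deubiquitinase gene, had 5.67, 10.4 and 11.1 CPM in WT and 48.5, 42.4 and 40.2 CPM in KO (edgeR adjusted p = 0.075). It passed with upper quartile scaling, without a filter on low counts and with at least 10 counts required in every sample. It also passed with limma-voom, with DESeq2 and with the score of the chromosome 1 genes as covariate. In these alternatives the adjusted p was 3.18e-08 to 0.0488. The score overlapped between WT and KO, so the call made with it is not adjusted for the congenic background. Ctse, which encodes the protease cathepsin E, had 633, 573 and 504 CPM in WT and 179, 21.2 and 43.6 CPM in KO (edgeR adjusted p = 0.861). Its KO values were far apart, and without KO replicate 1 its adjusted p was 0.00607. Of 123 genes tested in the stretch, 2 passed, 11 were higher in all KO than in all WT libraries and 13 were lower in all, or 8.94% and 10.6%. Over all tested genes these shares were 4.73% and 4.79%. Ptprc itself, which encodes CD45, had 155, 269 and 299 CPM in WT and 261, 398 and 312 CPM in KO, and the groups overlapped.

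Within 5 Mb of Clec9a, 89 genes were tested. Of these, 3, or 3.37%, were higher in all KO libraries and 7, or 7.87%, lower in all, against 4.73% and 4.79% over all tested genes. Clec7a is 1 of the 3 higher genes. Olr1, the gene of the lectin-like receptor LOX-1 in the same cluster, had 0.061, 0.159 and 1.09 CPM in WT and 1.32, 3.72 and 4.75 CPM in KO. Gm43914, a transcript annotated inside a Clec9a intron on chromosome 6 from 129418179 to 129418772, had 1.22, 1.85 and 0.828 CPM in WT and no count in KO. Klrk1, which encodes the receptor NKG2D, overlapped between the groups. Olr1, Gm43914 and Klrk1 did not pass the threshold.

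**Figure D2:**
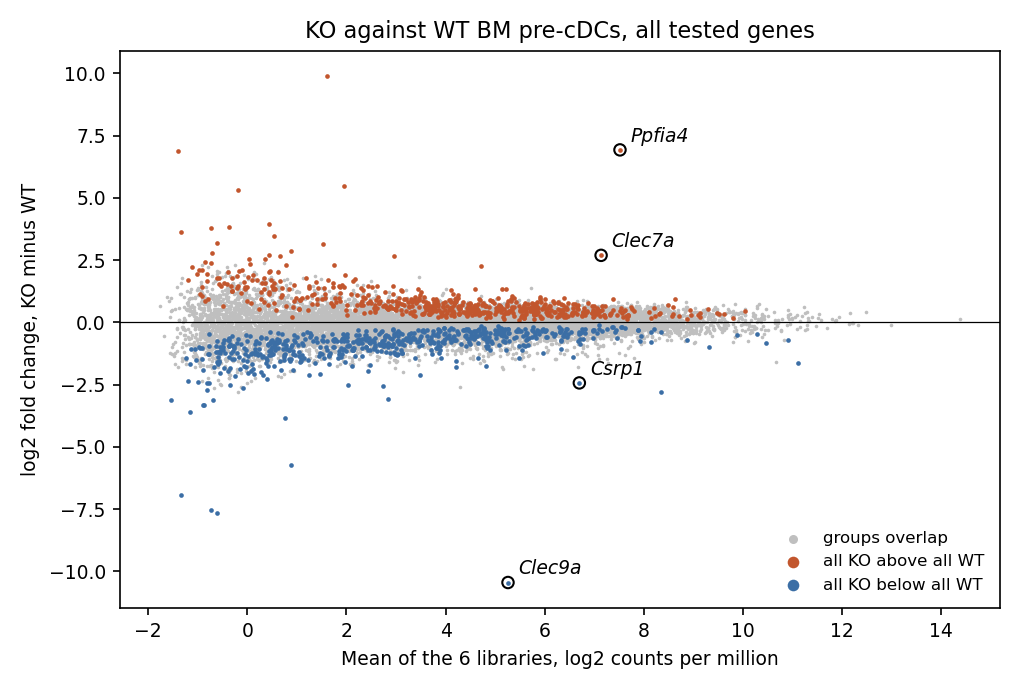
Log2 fold change (KO minus WT) of the 13016 tested genes against their mean level over the 6 libraries in log2 CPM. Orange and blue points are genes whose 3 KO values lie all above or all below the 3 WT values, grey points overlap, and rings mark the 4 genes past the threshold, which stand clear of the other genes of like level.

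Across all tested genes 203 had an unadjusted p under 0.05 with higher levels in KO, 1.56% of the genes, and 295 with lower levels, 2.27%. Of these 498 genes, 338 did not overlap between the groups. Their number ranged from 206 without KO replicate 2 to 1281 without KO replicate 1 and moved with each library left out. A log2 difference of at least 1 in either direction was seen for 955 genes, of which 132 were higher and 198 lower in KO without overlap. Outside both loci the 12 higher and 12 lower genes with the lowest p, non-overlapping groups and at least 5 CPM in the higher group are described next. Their groups were non-overlapping by this rule, so the separation itself is no result.

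Among the higher genes, Xlr3b is an X-linked gene with near-identical neighbours, and its reads may be divided among them. It had no count in any WT library and 4.27, 11.01 and 3.06 CPM in KO, at least 111-fold higher against a floor of 3 counts over the WT group (edgeR adjusted p = 0.0989). Adgre4, an adhesion receptor of the F4/80 family, had 0.305, 0.899 and 0.517 CPM in WT and 3.55, 6.89 and 5.21 CPM in KO. Zfp951 encodes a zinc finger protein and had 0.915, 2.01 and 3.41 CPM in WT and 7.27, 15.3 and 17.5 CPM in KO. The orphan receptor gene Gpr141 had 14.9, 16.7 and 27.6 CPM in WT and 40.1, 59.9 and 51.6 CPM in KO.

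C3, the central complement component, had 2.87, 3.49 and 3.41 CPM in WT and 10.4, 8.58 and 8.12 CPM in KO, and Pros1, a ligand of the TAM receptors that take part in the uptake of dead cells, had 12.2, 24.9 and 26.8 CPM in WT and 48.7, 66.4 and 45.6 CPM in KO. Ccr1, a receptor for inflammatory chemokines, had 25.1, 24.3 and 28.8 CPM in WT and 35.9, 74.3 and 53.6 CPM in KO. Lcp2 encodes SLP-76, an adaptor phosphorylated downstream of SYK, and had 38.4, 33.7 and 45.6 CPM in WT and 63.5, 78.2 and 62.2 CPM in KO. Mcpt8, a basophil protease gene, had 1.95, 2.12 and 2.17 CPM in WT and 8.59, 7.19 and 4.29 CPM in KO. Apart from Xlr3b these genes, with Atp9a, Ift88 and Mtus1, had edgeR adjusted p of 0.746 to 0.861.

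Among the lower genes, Cpox, an enzyme of heme synthesis, had 35.1, 31.5 and 16.4 CPM in WT and 15.1, 5.50 and 7.81 CPM in KO. Srm, the spermidine synthase gene, had 76.0, 74.2 and 45.8 CPM in WT and 41.5, 14.4 and 15.9 CPM in KO. In both, as in Cdc34, Fahd1 and 1700006J14Rik, KO replicate 1 was the KO library nearest to WT. Of the 12, 4 are annotated as processed pseudogenes, Gm4366, Gm10039, Hmgb1-ps2 and Rps18-ps3, whose reads may belong in part to their parent genes. Gm4366 had 89.1, 60.3 and 42.4 CPM in WT and 32.5, 23.7 and 33.0 CPM in KO. Every one of the 12 had an edgeR adjusted p of 0.861.

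**Figure D3:**
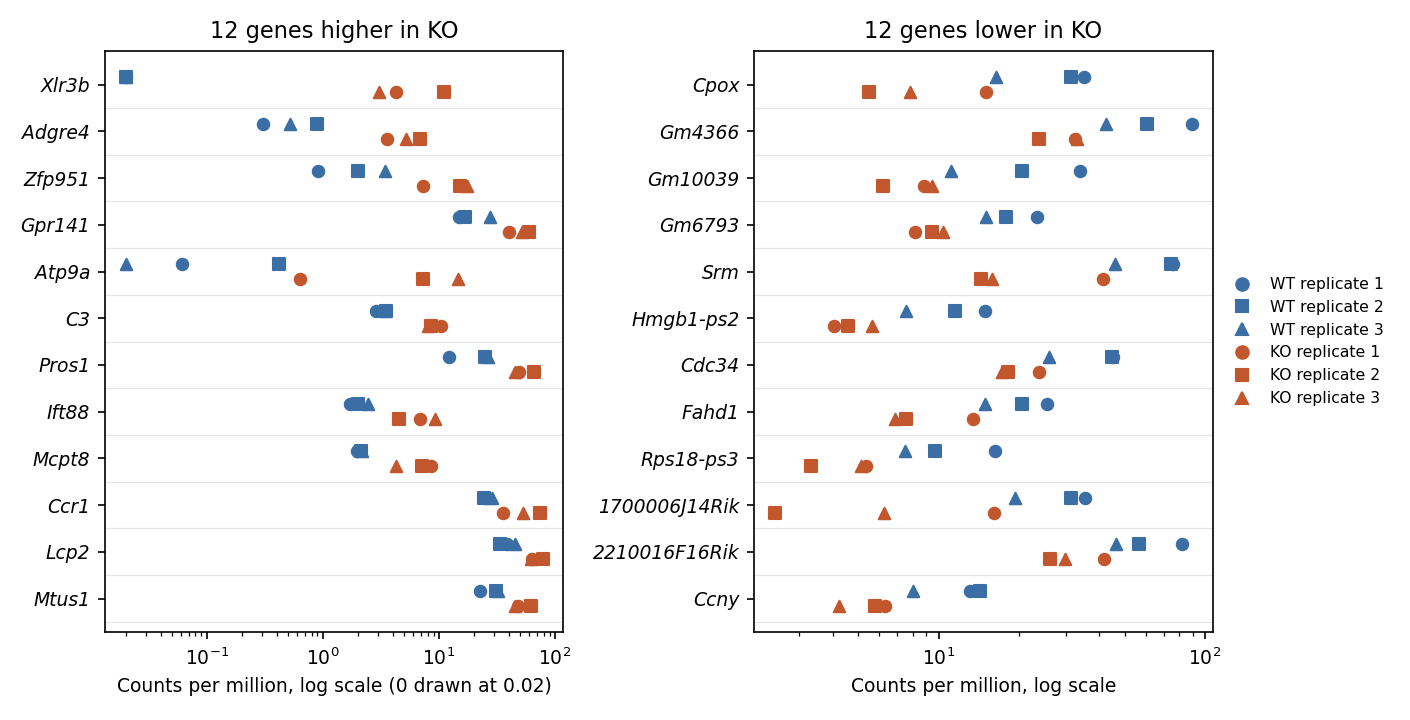
Level in each BM library, in CPM on a log axis, of the 12 higher and the 12 lower genes outside both loci. Colours mark genotype and shapes the replicate number, and each panel lists genes from the lowest p down. For each of the 12 lower genes WT replicate 3 is the WT point nearest to KO.

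Ccl5, a chemokine for T cells and monocytes, was very low. WT libraries held 2 counts in all, and KO libraries 107, at 2.27, 0.694 and 2.19 CPM. The KO level was 47.3 times the WT level, with a 95% interval of 12.8 to 396 for counting error alone, and the unadjusted p was 0.000791 by edgeR's quasi-likelihood test, adjusted p = 0.861.

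The spread between replicates set what could be seen. The biological coefficient of variation was 0.375 among WT and 0.394 among KO libraries, and the median gene had an SD of log2 CPM of 0.40 in WT and 0.34 in KO against a median absolute difference between genotypes of 0.30. For 5714 genes, or 43.9%, the 95% interval of the log2 fold change lay within -1 to 1, and this share was 75.3% for genes over 100 CPM and 0.3% for those under 5 CPM. Genotype accounted for 24.8% of the variance over all tested genes among the 6 libraries (exact permutation test over the 20 splits, two-sided, p = 0.2, where 0.1 is the smallest possible). The labels do not say that replicates came from separate chimeras. The total of mice in the study's figure legend is met if replicates were separate pools and WT and KO cells shared chimeras. Which WT sample would share its mice with which KO sample is not stated. The main test was unpaired, and p-values measure the spread between these samples only. With same-numbered samples paired in a replicate block, 821 genes in place of 498 had an unadjusted p under 0.05, and 4 passed the adjusted threshold.

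**Figure D4:**
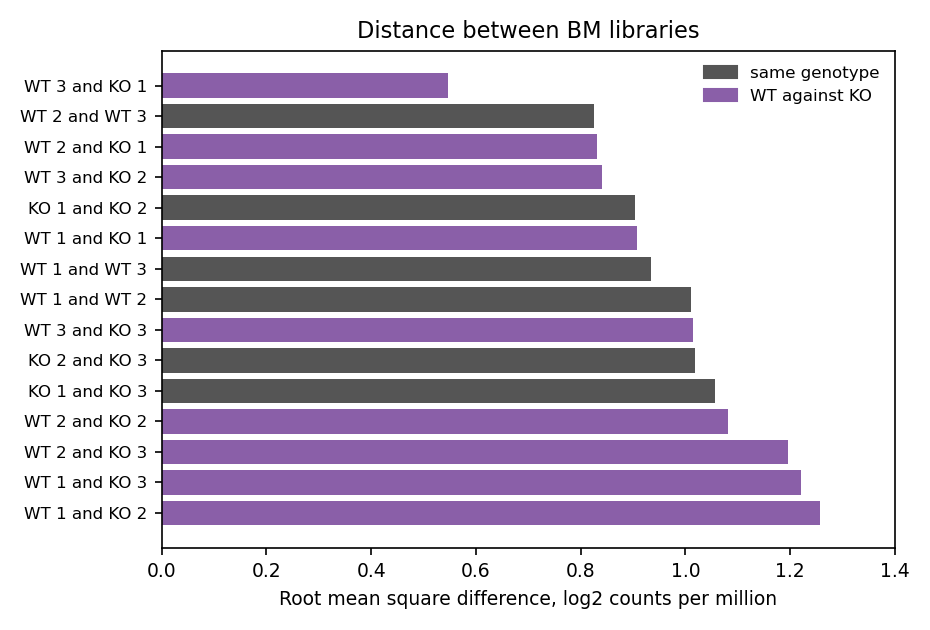
Root mean square difference in log2 CPM between every pair of BM libraries, with pairs of the same genotype in grey and WT against KO in purple. The closest pair, at 0.547, and the farthest pair, at 1.26, both hold 1 WT and 1 KO library.

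Libraries did not sort by genotype. The closest pair was WT replicate 3 with KO replicate 1 (Pearson's r of log2 CPM across genes 0.978), and the farthest was WT replicate 1 with KO replicate 2 (r 0.896). WT replicate 1 was the library farthest from its group for 53.3% of the genes. Transcript length moved with these differences: when genes were cut into 5 equal classes of length, in the class of up to 1688 bases the median level relative to the gene's mean was 0.49 in WT replicate 1 and between -0.23 and 0.12 in the other libraries, and in the class of the longest genes it was -0.30 in WT replicate 1. Among the shortest genes 10.01% were lower in all KO libraries and 1.58% higher in all, against 2.12% and 5.66% among the longest. The part of transcript length in the gene groups was not tested beyond the medians given for genes of like length.

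Gene groups were described by their members' counts, their median log2 fold change and a level for each library, which is the median over the tested members of log2 CPM minus that gene's mean over the 6 libraries. The median log2 fold change of all tested genes was -0.004, and 30 of 37 groups lay above it. Relative to genes of like length and GC content, 32 of 37 groups had a median above 0. In bulk samples a smaller number of cells of a type and less RNA per cell cannot be told apart.

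**Figure D5:**
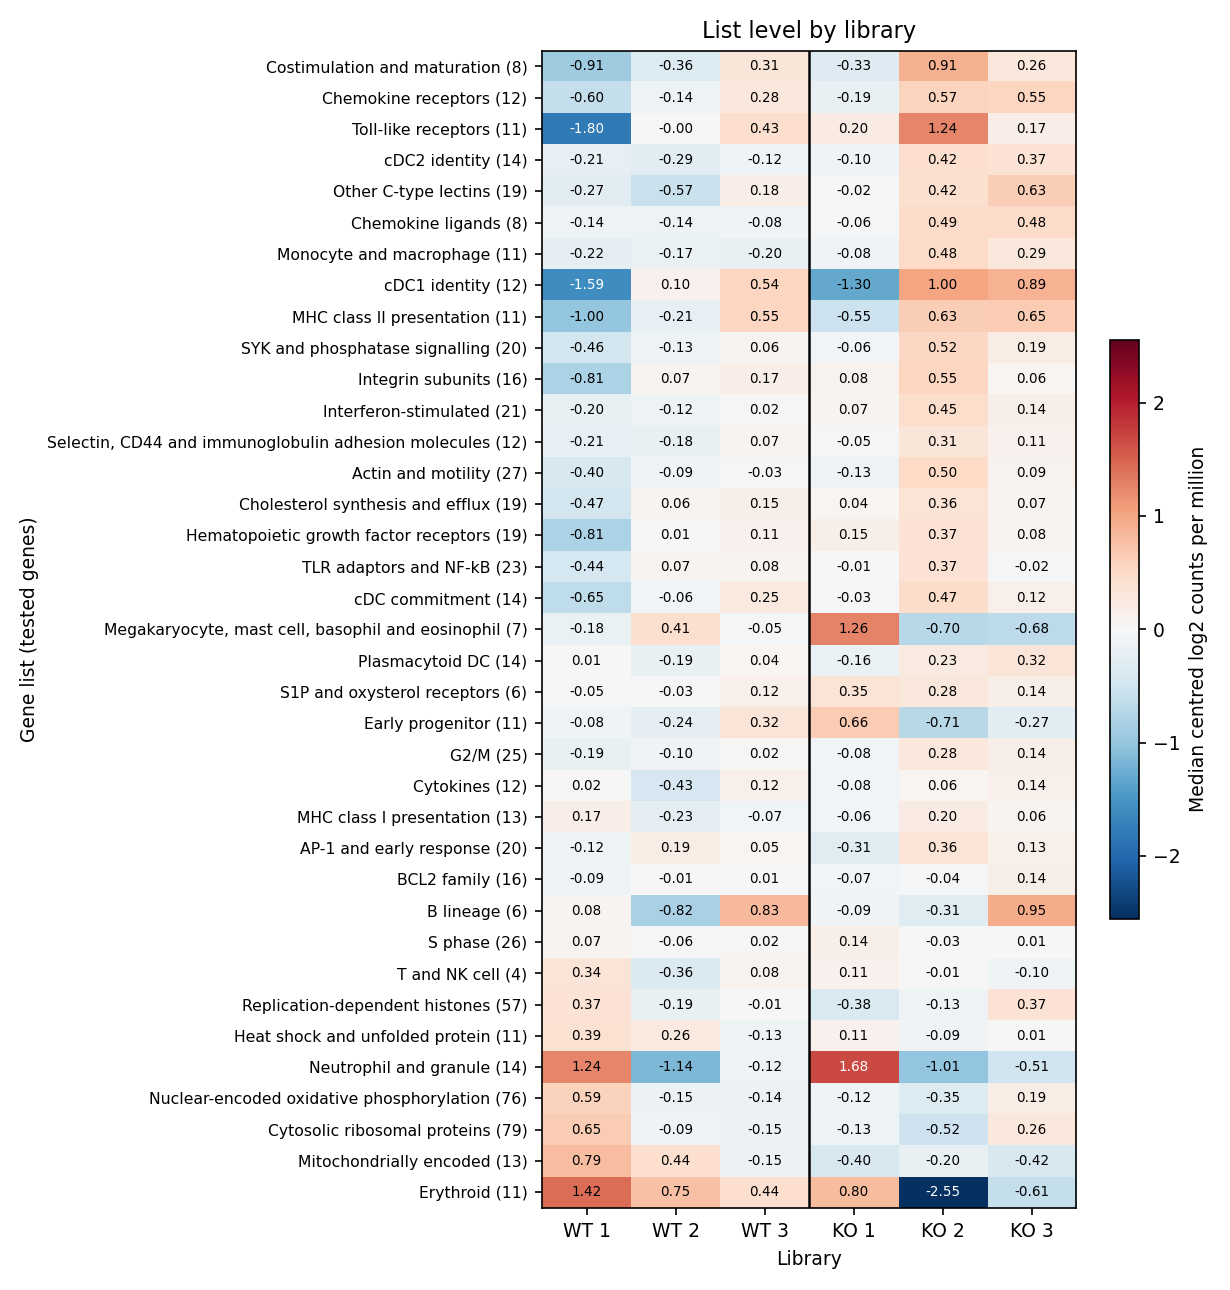
Level of 37 gene lists in each BM library, ordered by the list's median log2 fold change, with the number of tested genes in brackets. Red cells are above and blue cells below the mean of the 6 libraries on the log2 scale. WT replicate 1 is lowest for most lists in the upper part, KO replicate 2 is highest for many of them, and erythroid genes run from 1.42 in WT replicate 1 to -2.55 in KO replicate 2.

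Mitochondrially encoded mRNAs lay lower in KO as a group. Of the 13 genes, 10 had an unadjusted p under 0.05 with lower levels in KO and 6 were lower in all KO libraries. Over all tested genes these shares were 2.27% and 4.79%. None of the 13 passed the adjusted threshold, and the median log2 fold change was -0.73. The levels were 0.79, 0.44 and -0.15 in WT and -0.40, -0.20 and -0.42 in KO, without overlap. mt-Nd1, a subunit of complex I, had 2536, 1734 and 1174 CPM in WT and 1003, 1135 and 969.9 CPM in KO, and mt-Atp6, a subunit of the ATP synthase, had 3377, 1928 and 1788 CPM in WT and 1211, 1583 and 1605 CPM in KO. WT replicate 1 was the highest and WT replicate 3 the nearest to KO. mt-Nd6, from the other strand, overlapped between the groups and its log2 fold change was 0.05. Without WT replicate 1 the median was -0.48 and 1 gene of the 13 had an unadjusted p under 0.05 with lower levels. That share over all tested genes was then 0.67%. Relative to genes of like length and GC content the median was -0.53.

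Nuclear genes of the same complexes showed less. Of 76 tested genes of oxidative phosphorylation 69 had a negative log2 fold change, with a median of -0.21, 2 had an unadjusted p under 0.05 and 3 were lower in all KO libraries, close to what the shares of all tested genes, 2.27% and 4.79%, give for 76 genes. Without WT replicate 1 the median was 0.09 and 48 of 76 were positive, and without KO replicate 2 it was -0.05. Atp5g1, a subunit of the ATP synthase, had 672, 386 and 333 CPM in WT and 337, 205 and 306 CPM in KO. The 79 tested genes of cytosolic ribosomal proteins all had a negative log2 fold change, with a median of -0.27. That direction rested on WT replicate 1, whose level was 0.65 where the other libraries lay between -0.52 and 0.26, and without it the median was 0.06 and 48 of 79 were positive. It was -0.11 without KO replicate 2, -0.41 without WT replicate 3 and -0.50 without KO replicate 3.

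Pseudogenes, some of them named after ribosomal proteins, lay lower in KO as a group. Of 640 tested, 157, or 24.5%, were lower in all KO libraries and 7, or 1.09%, were higher in all, whereas among 11404 protein-coding genes 3.54% were lower in all and 4.96% higher in all. The median log2 fold change of pseudogenes was -0.53. Their levels were 0.63, 0.24 and -0.03 in WT and -0.34, -0.32 and 0.01 in KO, so that WT replicate 3 lay below KO replicate 3. Of the 67 named after ribosomal proteins 66 had a negative log2 fold change. Without WT replicate 1 the median was -0.31, and 8 pseudogenes in place of 67 were lower at an unadjusted p under 0.05. That share over all tested genes fell from 2.27% to 0.67%. Relative to genes of like length and GC content the median was -0.32.

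Erythroid genes had the lowest median of all groups, -0.97 over 11 tested genes, of which 7 were negative and 4 positive, with no gene at an unadjusted p under 0.05. Car1 had 4911, 2912 and 2302 CPM in WT and 2227.5, 138 and 883 CPM in KO, and Klf1, the erythroid Krüppel-like factor, had 343, 220 and 141 CPM in WT and 174, 11.6 and 42.5 CPM in KO. KO replicate 2 was the lowest library for both. KO replicate 1 lay just below the WT range for Car1 and within it for Klf1. Without KO replicate 1 the median was -2.27 and 6 genes had an unadjusted p under 0.05 with lower levels. That share over all tested genes was then 6.73%, against 2.27% with all libraries. Without KO replicate 2 the median was -0.46. The 4 positive genes were the globins Hba-a1, Hba-a2, Hbb-bs and Hbb-bt, with log2 fold changes of 0.53 to 0.90 and groups that overlapped. Hbb-bs had 74.0, 2.17 and 29.8 CPM in WT and 63.6, 36.9 and 97.0 CPM in KO.

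The 5 genes with the widest spread among KO libraries at 20 CPM or more had the order of Car1. Prss50, Atp1b2, Slc38a5, Spire1 and Epdr1 were all highest in KO replicate 1 and lowest in KO replicate 2, by 21.5 to 26.3 times, as were Car1 and Klf1 by 16.1 and 15.1 times. Slc38a5, a glutamine transporter, had 95.9, 4.46 and 41.8 CPM in KO and 165, 97.2 and 70.6 CPM in WT. The widest spread among WT libraries was that of Hbb-bs, Ltf, Dntt, Vcl and S100a8. Ltf, a neutrophil granule protein, had 31.4, 2.12 and 26.2 CPM in WT, and Vcl, the focal adhesion protein vinculin, had 5.74 CPM in WT replicate 1 against 74.3 and 54.3 CPM in the others.

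Neutrophil granule genes were highest in the library numbered 1 of each genotype. Their level was 1.24 in WT replicate 1 and 1.68 in KO replicate 1, and -1.14, -0.12, -1.01 and -0.51 in WT replicates 2 and 3 and KO replicates 2 and 3. S100a8, an abundant neutrophil protein, had 183, 12.01 and 43.0 CPM in WT and 150, 14.5 and 41.8 CPM in KO. Megakaryocyte, mast cell, basophil and eosinophil genes were highest in KO replicate 1, at 1.26 against -0.70 to 0.41 elsewhere. There Itga2b, an integrin subunit of platelets, had 31.3 CPM against 3.92 to 5.82 in the other libraries.

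Genes of cDC identity lay higher in KO on the median, to different degrees. The 14 tested cDC2 genes had a median log2 fold change of 0.52, 12 were positive, 3 had an unadjusted p under 0.05 with higher levels and 4 were higher in all KO libraries, where these shares were 1.56% and 4.73% over all tested genes. The median was 0.31 without WT replicate 1. The number with an unadjusted p under 0.05 and higher levels was 0 without KO replicate 2, where that share over all tested genes was 0.79%. It was 1 without WT replicate 2 or KO replicate 3 (shares 1.04% and 0.83%) and 5 without KO replicate 1 (share 2.86%). Levels of the cDC2 genes were -0.21, -0.29 and -0.12 in WT and -0.10, 0.42 and 0.37 in KO, and KO replicate 1 lay next to the WT range. Cd209a, a lectin of monocyte-related DCs and cDC2 precursors, had 337, 268 and 312 CPM in WT and 346, 538 and 526 CPM in KO. Itgam, which encodes CD11b, had 27.2, 41.4 and 62.4 CPM in WT and 68.2, 116 and 68.6 CPM in KO. Irf4 and Sirpa overlapped between the groups.

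The 12 tested cDC1 genes were all positive with a median of 0.41, yet none was higher in all KO libraries. Levels ran from -1.59 in WT replicate 1 and -1.30 in KO replicate 1 through 0.10 and 0.54 in WT replicates 2 and 3 to 1.0 and 0.89 in KO replicates 2 and 3. Batf3, a transcription factor that cDC1s need, had 7.02, 13.01 and 14.8 CPM in WT and 4.23, 20.3 and 26.8 CPM in KO, and Xcr1, the cDC1 receptor for XCL1, had 1.34, 3.91 and 6.26 CPM in WT and 1.0, 9.72 and 6.84 CPM in KO. In both genes the replicates numbered 1 were the lowest, and KO replicates 2 and 3 were above every WT library. Without WT replicate 1 the median of the group was -0.12, and it was 0.20 without KO replicate 2, 0.27 without KO replicate 3, 0.79 without KO replicate 1 and 0.97 without WT replicate 3.

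MHC class II genes ran in parallel with cDC1 genes. All 11 were positive, with a median of 0.40 and none at an unadjusted p under 0.05. The median was 0.23 without WT replicate 1 or KO replicate 2, 0.24 without KO replicate 3, 0.73 without WT replicate 3 and 0.81 without KO replicate 1. H2-Ab1, a class II beta chain, had 438, 1263 and 1757 CPM in WT and 340.2, 2385.5 and 2252 CPM in KO, so that the library numbered 1 was lowest in each genotype. MHC class I genes had a median of 0.09, which ranged from -0.01 to 0.19 with 1 library left out. Costimulation genes had the highest median of all groups, 0.61 over 8 tested genes, all positive, but 0.21 without WT replicate 1. Cd40, a receptor through which T cells activate DCs, had 13.2, 13.6 and 9.68 CPM in WT and 12.8, 29.3 and 21.2 CPM in KO.

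Genes of monocytes and macrophages had a median of 0.44, with 10 of 11 tested members positive, and of 0.29 without KO replicate 2. Of the 11, 2 were higher in all KO libraries, where the share over all tested genes was 4.73%. F13a1, coagulation factor XIII of monocytes, had 114, 331 and 374 CPM in WT and 543, 594 and 417 CPM in KO. Csf1r, the receptor for M-CSF and a member of the cDC commitment list, had 163, 339 and 497 CPM in WT and 550, 718 and 495 CPM in KO and overlapped by a single library. The group's levels, -0.22 to -0.17 in WT and -0.08 to 0.48 in KO, did not overlap. Vcan, a proteoglycan gene of the list, was not counted in any library.

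Chemokine receptors had 11 of 12 tested members positive and a median of 0.57. Ccr2, which guides monocytes out of the BM, had 366, 752 and 969 CPM in WT and 784, 1416 and 1241 CPM in KO, where KO replicate 1 lay within the WT range (edgeR adjusted p = 0.861). Cxcr4, which holds progenitors in the BM, was the negative member, with 20.7, 15.3 and 21.1 CPM in WT and 11.2, 15.6 and 16.8 CPM in KO. Its groups overlapped, and it lies in the chromosome 1 stretch that congenic CD45 strains can differ in. Without that stretch the median of the receptors, relative to that of all tested genes, was 0.61 in place of 0.57. Cx3cr1 had 212, 345 and 314 CPM in WT and 323, 496 and 378 CPM in KO. Without WT replicate 1 the median was 0.26 and 11 of 12 were positive, and it was 0.36 without KO replicate 2, 0.38 without KO replicate 3 and 0.86 without WT replicate 3.

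Adhesion and cytoskeletal genes had small median differences. Of 27 tested actin and motility genes 25 were positive, with a median of 0.28, or 0.14 without KO replicate 2 and 0.42 without KO replicate 1, and Was, the Wiskott-Aldrich protein that drives actin branching, had 88.0, 119 and 126 CPM in WT and 172, 204 and 151 CPM in KO. Integrin subunits had 14 of 16 positive and a median of 0.36, which was 0.16 without WT replicate 1, 0.17 without KO replicate 2 and 0.62 without WT replicate 3. Selectin, CD44 and immunoglobulin-type adhesion molecules were divided, with 7 of 12 positive and a median of 0.29, which was 0.18 without WT replicate 1 and 0.05 without KO replicate 2. Among 20 tested genes of SYK and phosphatase signalling 19 were positive with a median of 0.37, or 0.24 without KO replicate 2, and Cybb, the catalytic subunit of the phagocyte NADPH oxidase, had 69.8, 124 and 150 CPM in WT and 186, 291 and 184 CPM in KO. In Was and Cybb every KO library was above every WT library and WT replicate 1 was the lowest. Such separation was seen for 1 of the 27 actin and motility genes and 2 of the 20 SYK and phosphatase genes. The share over all tested genes was 4.73%.

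Toll-like receptors had a median of 0.56 over 11 tested genes and, after the erythroid genes, the widest range over libraries, from -1.80 in WT replicate 1 to 1.24 in KO replicate 2. Tlr13, a sensor of bacterial ribosomal RNA, had 0.366, 2.43 and 2.12 CPM in WT and 2.95, 8.53 and 7.15 CPM in KO, without overlap. Tlr2 had 17.3, 47.7 and 51.5 CPM in WT and 44.5, 66.2 and 45.3 CPM in KO. The median of the group was 0.35 without WT replicate 1 and 0.37 without KO replicate 2, and 0.84 without KO replicate 1, 0.88 without WT replicate 2 and 1.47 without WT replicate 3. Interferon-stimulated genes had a median of 0.32 over 21 tested genes. Of the 21, 3 were higher in all KO libraries, where the share over all tested genes was 4.73%. Among the 3 was Gbp3, a guanylate-binding protein, at 22.0, 19.5 and 22.1 CPM in WT and 39.0, 28.0 and 35.1 CPM in KO.

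Genes of the cell cycle showed little. The 26 S phase genes had a median of 0.04 with 15 positive, and the 25 genes of G2 and M phase a median of 0.14 with 21 positive. With 1 library left out these medians ranged from -0.03 to 0.10 and from 0.11 to 0.24. Mcm7, a subunit of the replicative helicase, had 649, 568 and 631 CPM in WT and 685, 553 and 638 CPM in KO. The E cyclins, which start S phase, went in opposite directions: Ccne1 had 72.4, 60.8 and 50.8 CPM in WT and 45.4, 37.8 and 30.4 CPM in KO, and Ccne2 had 22.0, 38.1 and 48.9 CPM in WT and 51.0, 57.7 and 69.5 CPM in KO. Neither passed the threshold (edgeR adjusted p = 0.861 for both). Histone, BCL2 family and AP-1 genes had medians of -0.02, 0.04 and 0.04. Pmaip1, the BCL2 family member NOXA, had 12.9, 37.7 and 33.9 CPM in WT and 38.5, 67.2 and 59.5 CPM in KO.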

How the data were processed

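Bulk RNA-seq of pre-cDCs sorted from mixed BM chimeras was analysed for the 3 WT and 3 DNGR-1 KO BM samples, grouped by their genotype and tissue labels. The authors deposited expected counts per gene, not normalized, and log2-scale values after DESeq's variance stabilizing transformation, used here as an alternative scale. Ribosomal RNA had been removed from the total RNA used for the libraries. Whether counting used strand is not given in the sources used here. The submitters' processing notes name Trimmomatic 0.36, STAR 2.5.2, RSEM 1.3.0, DESeq2 1.18.1, R 3.4.3 and GRCm38. Reads shared by paralogs, pseudogenes and overlapping genes can be divided between them by such counting.

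Expected counts were rounded, since 25.6% of the nonzero values were not whole, and the design had assumed raw counts. Symbols and coordinates came from GENCODE M21 on GRCm38 (51719 of 51912 identifiers matched), and promoter sequences from RefSeq on GRCm38.p6. In R 4.3.3 with edgeR 4.0.16, counts were filtered by filterByExpr, scaled by TMM and tested over the 6 samples by the quasi-likelihood test with Benjamini-Hochberg adjustment at 0.05. Log2 CPM used a prior count of 2. Depths of 17457317 to 20938524 counts allow 3 counts to show 0.143 to 0.172 CPM. The self-test on simulated counts was checked for recovery and coverage.

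Alternatives were RLE, upper quartile and total-count scaling, other filters, thinning, DESeq2 1.42.0, limma 3.58.1 (voom), all 9 samples in one fit, a replicate block, a score of the chromosome 1 genes as covariate, that stretch left out, and each sample left out. Medians of gene groups with a sample left out and those relative to genes of like transcript length and GC content were added after seeing the data. Named genes were Clec9a, Ptprc and Ccl5, all genes past the threshold, the 12 higher and 12 lower genes described in the text, the 5 with the lowest p at each locus, in each list the 2 with the highest level and the 2 with the lowest p, and the 5 with the widest spread in each genotype. Cd3e, Eif2s3y, Ddx3y, Batf3, Xcr1, Irf4, Sirpa, Cxcr4, mt-Nd6, Hba-a1, Hba-a2, Hbb-bt and Vcan are list members named outside this rule after their values were seen. The members and lists were chosen with earlier results of these data known. The 3 spleen samples entered only the fit of all 9.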

Additional observations from a re-analysis of the deposited data

How the results depend on the processing

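Genes past the adjusted threshold numbered 4, 10 without a filter on low counts, 11 with DESeq2, 1 (Clec9a) without the chromosome 1 stretch and 2 to 15 with 1 sample left out. Genes with an unadjusted p under 0.05 numbered 498, but 1107 without a filter, 251 with all 9 samples in one fit and 821 with the replicate block. They numbered 1066 with the score of the chromosome 1 genes as covariate and 206 to 1281 with 1 sample left out. That score overlapped between WT and KO and so cannot adjust for the congenic background. With 1 sample left out, 987 to 1929 genes were higher and 970 to 2146 lower in all KO samples, as fewer samples must agree, and 3611 to 6593 genes had an interval within -1 to 1. Without KO replicate 1, 15 genes passed and 1281 had an unadjusted p under 0.05. The Clec9a difference passed in every alternative in which it was tested, and it could not be tested with at least 10 counts required in every sample. Among 61 named genes with an unadjusted p under 0.05 none changed sign in 1084 alternatives. These genes were picked by that p and the alternatives reuse the same counts, so kept signs were likely beforehand and add no support. The cause of the changes in the counts of genes was not tested. Same-numbered samples correlated in their deviations at 0.103, 0.0989 and -0.0815, so that the numbers were not taken to pair samples, and the replicate block left the count of genes past the adjusted threshold at 4. Counts thinned to the smallest total left 4 genes past the adjusted threshold and 488 with an unadjusted p under 0.05, and intervals were widest for genes under 5 CPM.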
